A study of Mus musculus with 12 samples.

Results

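The subunit switch genes of the BAF chromatin remodelling complex were followed in projection neurons of the upper layers of the mouse cerebral cortex. The set was a fixed list of 10 gene symbols among the 56734 genes of the deposited table, chosen by name and not by level. It held 4 neuronal subunits (Actl6b, Dpf1, Dpf3 and Ss18l1), 4 progenitor subunits (Actl6a, Phf10, Dpf2 and Ss18) and the alternative ATPases Smarca2 and Smarca4. Every member was found, and all 10 passed the filter on low values. Polyadenylated RNA came from wild-type cortex of layer 2 and layer 3 at postnatal day 7 (P7) and at postnatal day 3 (P3), with 3 libraries in each of the 4 groups (P7 layer 2, P7 layer 3, P3 layer 2 and P3 layer 3). The neurons had been marked with the fluorescent protein mCherry by electroporation in utero at a set time and were then sorted by fluorescence, and each library pooled neurons of 2 to 3 pups. Electroporation marks only cells whose precursors took up the DNA, and the sort takes every cell that carries the marker. Library names carry the number 15 for layer 2 and 14 for layer 3, and the sources used here do not say what these numbers stand for.

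BAF complexes, the mammalian relatives of yeast SWI/SNF, use the energy of ATP to slide or evict nucleosomes and so open enhancers and promoters. Neural progenitors build the complex with Actl6a (BAF53a), Phf10 (BAF45a) or Dpf2 (BAF45d), and Ss18. When a cell leaves the cell cycle and becomes a neuron, these are replaced by the paralogs Actl6b (BAF53b), Dpf1 (BAF45b) or Dpf3 (BAF45c), and Ss18l1 (CREST), and the neuronal form takes part in dendrite growth. In progenitors the repressor Rest silences neuronal genes, among them microRNA genes. Once Rest falls, the microRNAs miR-9* and miR-124 silence Actl6a.

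Actl6a was called between the ages in layer 2 and between the layers at P3. Both calls share the 3 libraries of P3 layer 2. The promoters of Actl6a and of its neuronal counterpart Actl6b are shown because of these calls. Each is the stretch of 250 bases before to 50 bases after the gene's start in RefSeq on GRCm38.p6, which is not the build of the deposited values. Windows were found for 9 of the 10 members. That of Actl6a lies at chr3:32708296-32708595 on the plus strand and that of Actl6b at chr5:137553296-137553595 on the plus strand. Capitals mark the blocks AGCACC and GGACAG, the left and right parts of the Rest recognition element. They stand here on the minus strand, so the printed strand shows the reverse complement of each, with the right part first.
Actl6a: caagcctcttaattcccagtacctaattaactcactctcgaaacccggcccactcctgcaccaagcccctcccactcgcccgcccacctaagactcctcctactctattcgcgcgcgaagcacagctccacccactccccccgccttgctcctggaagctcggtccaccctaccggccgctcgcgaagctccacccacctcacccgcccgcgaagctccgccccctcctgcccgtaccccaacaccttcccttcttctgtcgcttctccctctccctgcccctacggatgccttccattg
Actl6b: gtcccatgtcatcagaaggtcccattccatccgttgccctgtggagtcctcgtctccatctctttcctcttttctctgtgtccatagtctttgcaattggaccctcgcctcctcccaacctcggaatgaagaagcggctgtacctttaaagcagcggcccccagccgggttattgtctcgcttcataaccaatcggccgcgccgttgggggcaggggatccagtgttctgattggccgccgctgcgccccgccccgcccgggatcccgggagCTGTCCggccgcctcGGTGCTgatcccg
The Actl6b window held this pair of blocks 9 bases apart, at bases 23 to 43 after the start, and the Actl6a window held no such pair. Both strands of 32851 promoter windows were searched. A pair in this order at the canonical distance of 2 bases occurred in 17 windows (0.0517%) and in no member. A pair 7 to 9 bases apart occurred in 18 windows (0.0548%) and in 1 member, and that distance was chosen after the Actl6b sequence had been seen. The GC box GGGCGG stood 3 times in the Actl6a window and 2 times in the Actl6b window, in 8 of the 9 member windows, and in 35.7% of all windows. These matches describe letters and were not tested as binding sites.

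Levels are in transcripts per 1000000 (TPM), a unit scaled for transcript length in which every library has the same total. Read numbers cannot be had from it, so depth and its precision are unknown. A library had 15349 to 16948 genes at 1 TPM or above, and the tests covered 17606 genes that reached this level in 3 libraries or more. Correlations of log2(TPM + 1) across genes were 0.961 to 0.982 within groups and 0.878 to 0.974 between groups. In an earlier look at these data 3 libraries stood apart. They were replicate 1 of P7 layer 3, with the most genes at 1 TPM (16948), replicate 2 of P3 layer 2, with the highest summed level of progenitor markers (6879 TPM), and replicate 1 of P3 layer 3, with the fewest genes at 1 TPM (15349). The upper-layer neuron markers Cux1 (105 to 256 TPM), Cux2 (19.0 to 52.5 TPM) and Pou3f2 (32.9 to 63.2 TPM) were above 0 in every library. Markers of other cells were present too. The 7 microglia markers summed to 326 to 1644 TPM in a library and the 8 astrocyte markers to 107 to 1139 TPM, and none of these markers was at 0 in any library. In sorted bulk RNA, more cells of a type and more RNA per cell cannot be told apart.

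Actl6b, the neuronal actin-like subunit, had the highest level of the set in every group. It had 207, 171 and 206 TPM in P7 layer 2 and 148, 221 and 241 TPM in P7 layer 3, against 143, 147 and 179 TPM in P3 layer 2 and 256, 217 and 214 TPM in P3 layer 3. P3 layer 2 and P3 layer 3 did not overlap, whereas P7 layer 2 and P7 layer 3 did. Its progenitor paralog Actl6a had 16.9, 37.7 and 27.1 TPM in P7 layer 2 and 19.7, 27.4 and 23.4 TPM in P7 layer 3, against 45.7, 53.7 and 39.1 TPM in P3 layer 2 and 18.7, 29.0 and 26.9 TPM in P3 layer 3. The 3 libraries of P3 layer 2 were above all 9 others.

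The BAF45 slot read differently, with its neuronal form divided between an abundant and a scarce gene. Dpf1, a PHD finger subunit that reads histone tails, had 82.8, 84.0 and 96.8 TPM in P7 layer 2 and 101, 103 and 94.3 TPM in P7 layer 3, against 109.6, 87.6 and 121 TPM in P3 layer 2 and 140.4, 129.9 and 120.2 TPM in P3 layer 3. The ages did not overlap in layer 3 and overlapped in layer 2. Dpf3, the other neuronal reader, was the lowest of the 10 in every group and lay between 0.767 and 8.87 TPM over the 12 libraries, with 11 of them at 1 TPM or more. It made up 0.376% to 4.55% of the summed TPM of the 4 BAF45 genes in a library. The progenitor readers were well above it in every library: Dpf2 lay between 32.1 and 61.1 TPM and Phf10 between 30.6 and 46.0 TPM. Group means of Phf10 were 44.2 ± 1.58 TPM in P7 layer 2, 42.0 ± 1.38 TPM in P7 layer 3, 41.2 ± 5.19 TPM in P3 layer 2 and 36.2 ± 4.84 TPM in P3 layer 3 (SD, n = 3 each).

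Ss18l1, a calcium-responsive coactivator, lay between 26.4 and 54.3 TPM over the 12 libraries, and its group means of 36.9 ± 2.14, 41.4 ± 5.17, 38.8 ± 10.6 and 40.2 ± 13.95 TPM in P7 layer 2, P7 layer 3, P3 layer 2 and P3 layer 3 (SD, n = 3 each) differed by less than the spread of the P3 libraries. Its progenitor paralog Ss18 had 14.1, 26.7 and 21.0 TPM in P7 layer 2 and 20.5, 19.9 and 9.55 TPM in P7 layer 3, against 23.2, 32.0 and 34.5 TPM in P3 layer 2 and 8.19, 18.8 and 19.9 TPM in P3 layer 3. P3 layer 2 was above P3 layer 3 in all 3 libraries, while the P7 layers overlapped.

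Of the ATPases, Smarca2 (BRM) had 95.2, 95.2 and 84.2 TPM in P7 layer 2 and 72.0, 83.6 and 110.5 TPM in P7 layer 3, against 73.7, 62.1 and 76.4 TPM in P3 layer 2 and 42.8, 72.5 and 59.8 TPM in P3 layer 3. P7 was above P3 in all libraries of layer 2, and in layer 3 the lowest P7 library was just under the highest P3 library. Smarca4 (BRG1), the ATPase that predominates in many progenitors, varied less, with 55.1, 50.7 and 55.2 TPM in P7 layer 2 and 53.5, 57.8 and 58.7 TPM in P7 layer 3, against 60.7, 54.0 and 61.3 TPM in P3 layer 2 and 65.2, 78.4 and 61.0 TPM in P3 layer 3. In layer 3 every P7 library was below every P3 library, and in layer 2 the ages overlapped.

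**Figure D1:**
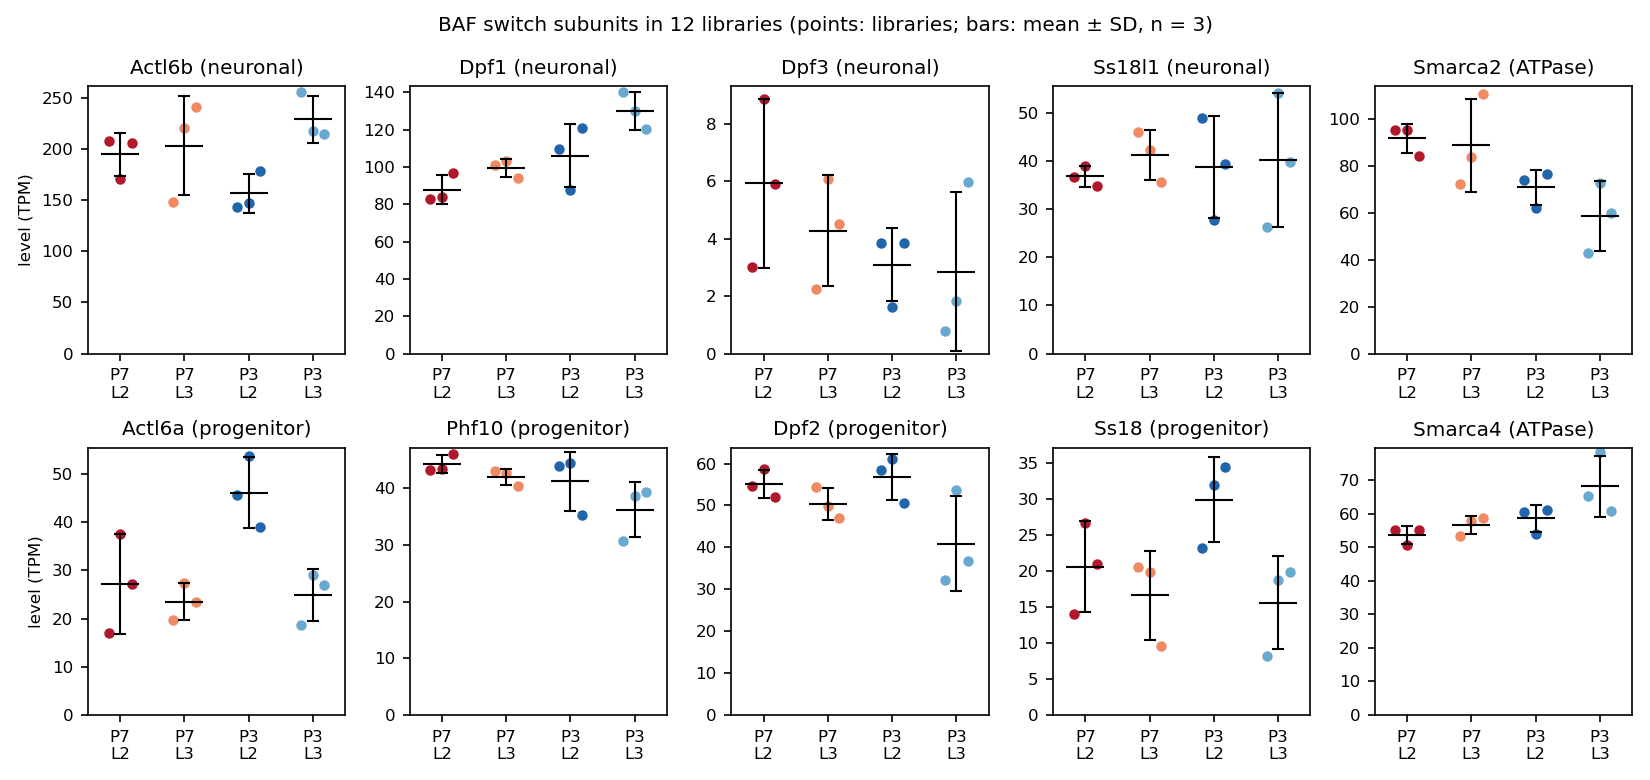
Level in TPM (vertical axes, from 0, with a scale of its own in each panel) of the 10 BAF switch subunits in P7 layer 2, P7 layer 3, P3 layer 2 and P3 layer 3; points are libraries and bars are mean ± SD (n = 3). Actl6a has its 3 highest libraries in P3 layer 2, and Dpf3 stays under 9 TPM (highest 8.87).

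By group mean, the order of levels began with Actl6b in all 4 groups and ended with Ss18 and Dpf3. Actl6b and Dpf1 did not overlap in any group, and Ss18 and Dpf3 did not overlap in any group. Smarca2 and Dpf1 overlapped at P7 in both layers, so their order there is not set. In P3 layer 2 the middle of the order, from Smarca4 through Dpf2, Actl6a, Phf10 and Ss18l1 to Ss18, overlapped at each step. Over the 12 libraries the mean level was 196 TPM for Actl6b, 106 TPM for Dpf1, 77.3 TPM for Smarca2, 59.3 TPM for Smarca4, 50.8 TPM for Dpf2, 40.9 TPM for Phf10, 39.3 TPM for Ss18l1, 30.4 TPM for Actl6a, 20.7 TPM for Ss18 and 4.04 TPM for Dpf3.

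Set against its progenitor paralog, Actl6b was the higher of the pair in 12 of 12 libraries. The ratio of Actl6b to Actl6a in TPM averaged 8.12 ± 3.88 in P7 layer 2 and 8.62 ± 1.46 in P7 layer 3, against 3.48 ± 0.961 in P3 layer 2 and 9.70 ± 3.44 in P3 layer 3 (SD, n = 3 each), and lay between 2.75 and 13.7 in single libraries. Ss18l1 exceeded Ss18 in 11 of 12 libraries, with mean ratios of 1.91 ± 0.609 in P7 layer 2 and 2.71 ± 0.905 in P7 layer 3, against 1.38 ± 0.652 in P3 layer 2 and 2.71 ± 0.628 in P3 layer 3. The exception was replicate 2 of P3 layer 2, at 0.869. In the BAF45 slot the ratio of the summed neuronal readers to the summed progenitor readers was 0.945 ± 0.0901 in P7 layer 2 and 1.12 ± 0.0594 in P7 layer 3, against 1.13 ± 0.304 in P3 layer 2 and 1.78 ± 0.424 in P3 layer 3, where single libraries lay at 1.43 to 2.25. Dpf1 alone made up 45.5 ± 2.57% of the summed TPM of the 4 BAF45 genes in P7 layer 2 and 50.7 ± 0.374% in P7 layer 3, against 51.0 ± 6.21% in P3 layer 2 and 62.1 ± 5.90% in P3 layer 3. Smarca2 exceeded Smarca4 in every P7 library, with mean ratios of 1.71 ± 0.176 in layer 2 and 1.56 ± 0.286 in layer 3. At P3 the ratio was 1.20 ± 0.0499 in layer 2 and 0.854 ± 0.174 in layer 3, where all 3 libraries were below 1.

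Together the 4 neuronal subunits made up 68.9 ± 3.83% of the summed TPM of the 8 neuronal and progenitor subunits in P7 layer 2 and 72.3 ± 3.69% in P7 layer 3, against 63.5 ± 5.14% in P3 layer 2 and 77.4 ± 4.45% in P3 layer 3 (SD, n = 3 each). The ages overlapped in both layers. The P3 layers did not overlap, with 58.0% to 68.3% in layer 2 and 74.2% to 82.5% in layer 3. These ratios and shares are descriptions and were given no test.

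**Figure D2:**
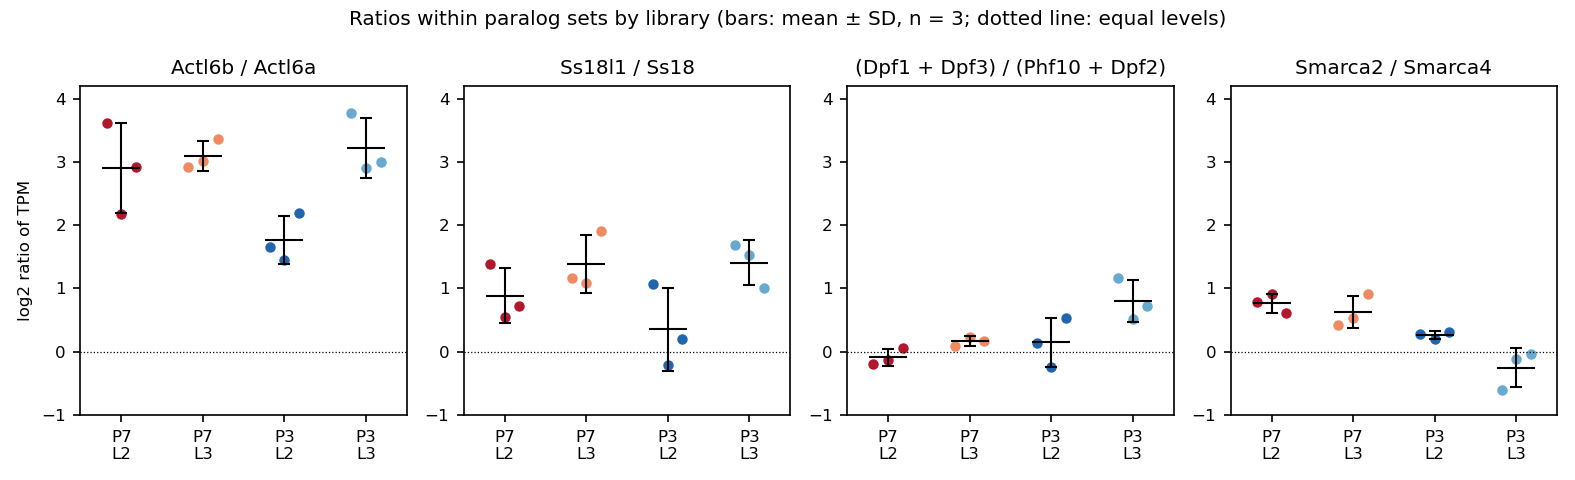
Log2 ratio of TPM (vertical axis) of neuronal over progenitor paralogs and of Smarca2 over Smarca4 in P7 layer 2, P7 layer 3, P3 layer 2 and P3 layer 3; points are libraries, bars are mean ± SD (n = 3) and the dotted line marks equal levels. Actl6b over Actl6a is above the line in 12 of 12 libraries and lowest in P3 layer 2, and Smarca2 over Smarca4 is below it in the 3 libraries of P3 layer 3.

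The comparison of P7 with P3 asked which subunits differed between the ages in the sorted cells. In the mean over both layers Smarca2 rose and Dpf1 fell. All log2 fold changes compare log2(TPM + 1), which understates low genes. A gene was called at an adjusted p under 0.05 in limma-trend with Benjamini-Hochberg adjustment over all tested genes. Smarca2 was higher at P7 by 0.49 ± 0.14 (SE, adjusted p = 0.0124), with P7 means of 91.6 ± 6.35 and 88.7 ± 19.8 TPM in layers 2 and 3 against P3 means of 70.7 ± 7.61 and 58.4 ± 14.9 TPM (SD, n = 3 each). Dpf1 was lower at P7 with a log2 fold change of -0.32 ± 0.09 (SE, adjusted p = 0.0154), with P7 means of 87.9 ± 7.76 and 99.5 ± 4.61 TPM in layers 2 and 3 against P3 means of 106 ± 16.9 and 130.2 ± 10.1 TPM. Dpf1 is one of the subunits that the neuronal complex gains. Both calls held under all 22 alternative settings, with adjusted p of 0.00128 to 0.0411 for Smarca2 and 0.00294 to 0.0444 for Dpf1. Marker lists moved with age too, beside calls of 36.3% of all tested genes. Over both layers 6 of 10 cell cycle and 3 of 9 progenitor markers were called lower, and 1 progenitor marker higher. Of 8 astrocyte markers 3 were called higher, of 7 microglia markers 2 lower, and of 8 mature neuron markers 7 higher and 1 lower. The part of these shifts in the Smarca2 and Dpf1 calls was not tested.

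The other 8 members were not called over both layers. Their log2 fold changes lay between -0.43 ± 0.18 (Actl6a, adjusted p = 0.0792) and 0.67 ± 0.35 (Dpf3, adjusted p = 0.151). Actl6b, the most abundant neuronal subunit, had 0.06 ± 0.12 (adjusted p = 0.731), with a 95% interval of -0.20 to 0.31, and Smarca4 had -0.19 ± 0.09 (adjusted p = 0.111). Over both layers 2 of 10 members were called, 1 higher and 1 lower, against 36.3% of all tested genes (23.6% higher and 12.8% lower) in the deposited TPM.

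Scaling bears on these counts. The median log2 fold change of all tested genes from P3 to P7 was 0.17 in layer 3 and 0.10 over both layers in the deposited TPM, and 0.00 and -0.01 after median-ratio scaling. Over both layers 64.9% of all calls were higher at P7 in the deposited TPM, against 51% after median-ratio scaling and 49.3% after quantile normalization, and in layer 3 these shares were 69.2%, 49.9% and 49.7%. After either scaling 4 members were called over both layers, since Actl6a (-0.56, adjusted p = 0.0215 and -0.64, adjusted p = 0.00927) and Smarca4 (-0.32, adjusted p = 0.0157 and -0.34, adjusted p = 0.00596) were then called lower at P7. Of all tested genes 35.9% were called after median-ratio scaling and 36.8% after quantile normalization, so that 4 of 10 members was near the share of all genes. Smarca2 and Dpf1 kept their direction, at 0.36 and -0.45 after median-ratio scaling.

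Within layer 2, Actl6a fell. Its level at P7 was 27.2 ± 10.4 TPM against 46.1 ± 7.31 TPM at P3 (SD, n = 3 each), a log2 fold change of -0.80 ± 0.26 (SE, adjusted p = 0.0368), and the ages did not overlap. It was the only member called in layer 2, where 24.3% of all tested genes were called (15% higher and 9.33% lower). Of the 4 neuronal subunits 2 lay on the higher side, Actl6b at 0.31 ± 0.17 (adjusted p = 0.195) and Dpf3 at 0.72 ± 0.49 (adjusted p = 0.317). The other 2 lay on the lower side, Dpf1 at -0.26 ± 0.13 (adjusted p = 0.171) and Ss18l1 at -0.04 ± 0.24 (adjusted p = 0.930). The call of Actl6a was lost when replicate 1 (adjusted p = 0.0777) or replicate 2 (0.135) of P3 layer 2, or replicate 1 (0.170) or replicate 3 (0.0793) of P7 layer 2, was left out. Without replicate 1 of P7 layer 2 its log2 fold change was -0.50. In a fit of the 2 layer 2 groups alone Actl6a lost its call (adjusted p = 0.0536) and Smarca2 was called instead (0.37, adjusted p = 0.0405).

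The fall of Actl6a went together with that of progenitor and dividing-cell markers, and markers of some other cells fell too. The 10 progenitor and radial glia markers, including Sox2, Pax6, Hes5 and Fabp7, summed to 1721 ± 916 TPM in P7 layer 2 (996 to 2751) against 5210.4 ± 1473 TPM in P3 layer 2 (4089.5 to 6879), and 3 of the 9 tested were called lower. Eomes was at 0 in 3 of the 12 libraries and was not tested. The 10 cell cycle markers summed to 201 ± 36.4 TPM (168 to 239.7) against 433 ± 42.5 TPM (401 to 481), and 8 of 10 were called lower. Mature neuron markers summed to 1741 ± 186 TPM against 561 ± 107 TPM, and 5 of 8 were called higher. The median log2 fold change was -0.82 for progenitor, -1.37 for cell cycle, -1.16 for oligodendrocyte lineage, -0.73 for microglia and -0.33 for interneuron markers. Each of the last 3 lists had 1 marker called lower. The median of astrocyte markers was 0.34, with 1 called higher. Of all tested genes 24.3% were called (9.33% lower). With the progenitor marker score (mean log2(TPM + 1) of the 10 progenitor and radial glia markers) as a covariate, the log2 fold change of Actl6a in layer 2 was -0.46 (adjusted p = 0.322). In that fit 18.7% of all tested genes were called. The scores of the ages did not overlap in layer 2 (4.10 to 5.02 at P7 against 5.18 to 5.74 at P3), so age and progenitor content cannot be told apart there. Without the 3 libraries that stood apart the log2 fold change of Actl6a was -0.69 (adjusted p = 0.104), and Dpf1 was then the member called, at -0.39 (adjusted p = 0.0373).

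Within layer 3, Smarca2 rose, at 88.7 ± 19.8 TPM at P7 against 58.4 ± 14.9 TPM at P3 (SD, n = 3 each), a log2 fold change of 0.60 ± 0.19 (SE, adjusted p = 0.0388). It was the only one of 10 members called, against 20.8% of all tested genes (14.4% higher and 6.42% lower). Dpf1 had -0.38 ± 0.13 (adjusted p = 0.0535) and Actl6a had -0.07 ± 0.26 (adjusted p = 0.882). The other progenitor subunits lay on the higher side, Dpf2 at 0.33 ± 0.17 (adjusted p = 0.192), Phf10 at 0.22 ± 0.14 (adjusted p = 0.301) and Ss18 at 0.11 ± 0.35 (adjusted p = 0.862). The Smarca2 call was not kept after median-ratio scaling (0.41, adjusted p = 0.132) or without the 3 libraries that stood apart (0.54, adjusted p = 0.0558). It was also lost on leaving out any of 8 single libraries: replicate 1 (0.40, adjusted p = 0.158) or replicate 3 (adjusted p = 0.0760) of P3 layer 3, replicate 2 (adjusted p = 0.0729) or replicate 3 (0.44, adjusted p = 0.153) of P7 layer 3, replicate 3 of P3 layer 2 (adjusted p = 0.0506), or any replicate of P7 layer 2 (adjusted p = 0.0503 to 0.0522). In layer 3 progenitor markers summed to 860.0 ± 523 TPM at P7 and 1180.4 ± 580.0 TPM at P3, so the groups overlapped, and mature neuron markers such as Snap25 and Slc17a7 summed to 2655 ± 269 TPM at P7 against 887 ± 127 TPM at P3. Of the 8 mature neuron markers 6 were called higher at P7. Astrocyte markers summed to 479 ± 347 TPM at P7 against 171 ± 109.6 TPM at P3, and 3 of 8 were called higher, as was 1 of 4 vascular markers tested. Of upper-layer neuron markers, Cux1 (-0.79, adjusted p = 0.00519), Cux2 (-0.80, adjusted p = 0.00702), Pou3f2 (-0.67, adjusted p = 0.0152) and Pou3f3 (-1.08, adjusted p = 0.000148) were called lower at P7, and Plxnd1 was called higher (0.74, adjusted p = 0.0147). The part of these shifts in the rise of Smarca2 was not tested.

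**Figure D3:**
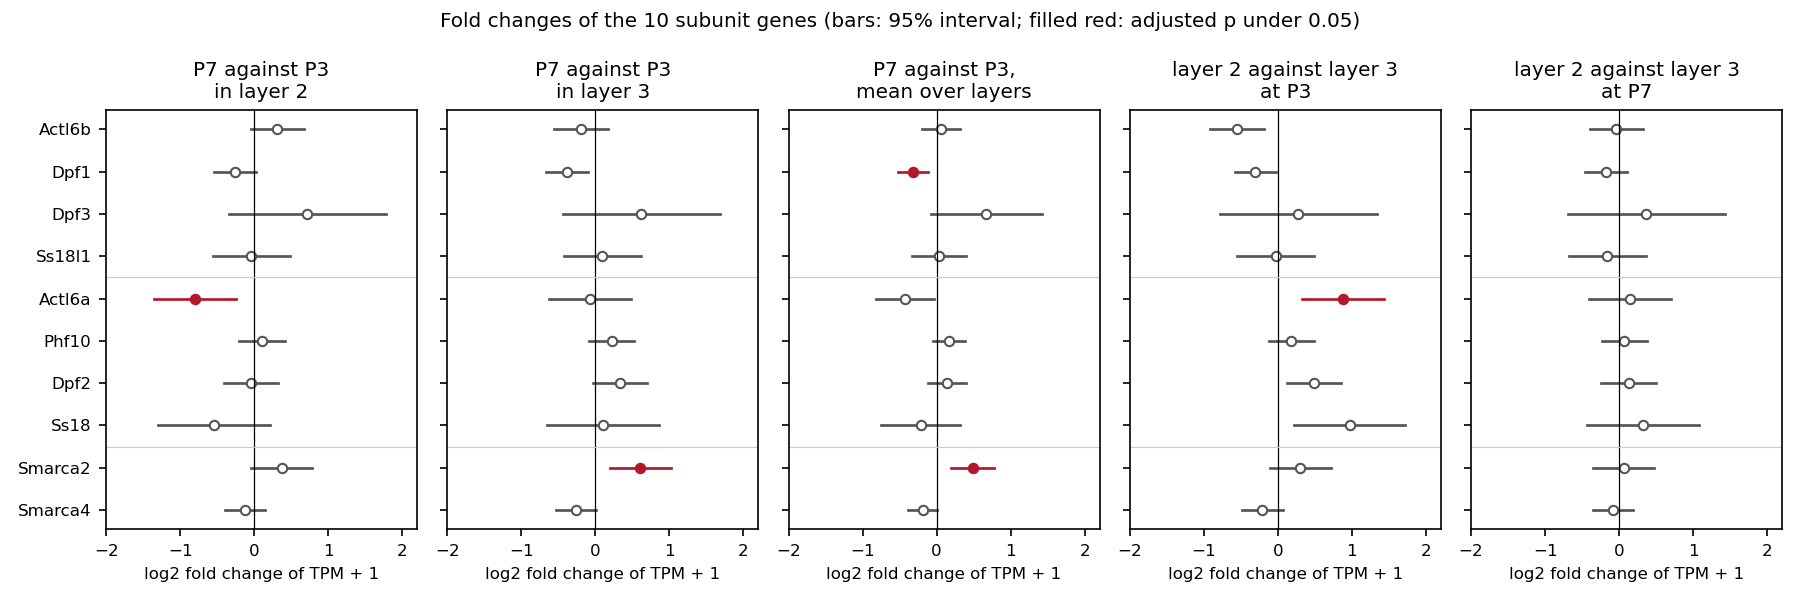
Log2 fold change of TPM + 1 (horizontal axes) of the 10 subunit genes in 5 comparisons, with neuronal subunits at the top, progenitor subunits in the middle and ATPases at the bottom; bars are 95% intervals and filled red points have an adjusted p under 0.05. Actl6a is called in layer 2 with age and at P3 with layer, Smarca2 and Dpf1 over both layers with age, and no member is called between the layers at P7.

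The comparison of layer 2 with layer 3 at P3 asked whether neurons of the adjoining layers differed in the switch. The progenitor subunits were on the higher side in layer 2, and of these Actl6a was called. Actl6a had 46.1 ± 7.31 TPM in layer 2 against 24.9 ± 5.44 TPM in layer 3 (SD, n = 3 each), a log2 fold change of 0.88 ± 0.26 (SE, adjusted p = 0.0493). Ss18 had 29.9 ± 5.90 TPM against 15.6 ± 6.46 TPM (0.97 ± 0.35, adjusted p = 0.105), and Dpf2 had 56.7 ± 5.47 TPM against 40.8 ± 11.3 TPM (0.49 ± 0.17, adjusted p = 0.0879). The median log2 fold change was 0.69 for the 4 progenitor subunits and -0.17 for the 4 neuronal subunits, beside 0.06 for all tested genes. On the neuronal side Actl6b had 156 ± 19.3 TPM in layer 2 against 229 ± 23.1 TPM in layer 3 (-0.55 ± 0.17, adjusted p = 0.0583), and Dpf1 had 106 ± 16.9 TPM against 130.2 ± 10.1 TPM (-0.30 ± 0.13, adjusted p = 0.174). The libraries of the layers did not overlap for Actl6a, Ss18 and Actl6b, and overlapped for Dpf2 and Dpf1. Phf10, the remaining progenitor subunit, had 0.18 ± 0.14 (adjusted p = 0.487). Of the other neuronal subunits Dpf3 had 0.27 ± 0.49 (adjusted p = 0.795) and Ss18l1 had -0.03 ± 0.24 (adjusted p = 0.967). Of 10 members 1 was called, against 9.05% of all tested genes (4.87% higher and 4.18% lower), and 5 had an unadjusted p under 0.05, against 23.8% of all tested genes.

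The same libraries differed in markers of progenitors and of other cells. The median log2 fold change was 1.62 for progenitor, 1.71 for astrocyte and 1.88 for oligodendrocyte lineage markers. At P3 the progenitor and radial glia markers summed to 5210.4 ± 1473 TPM in layer 2 (4089.5 to 6879) against 1180.4 ± 580.0 TPM in layer 3 (738 to 1837), and 9 of the 9 tested were called higher in layer 2. Of the 10 cell cycle markers 8 were called higher, as were 4 of 8 astrocyte, 2 of 7 oligodendrocyte lineage and 2 of 8 interneuron markers, while 4 of 8 mature neuron markers were called lower. Cux1 (-0.84, adjusted p = 0.00761), Cux2 (-1.01, adjusted p = 0.00421) and Plxnd1 (-1.53, adjusted p = 0.000623) were called lower in layer 2 too. With the progenitor marker score as a covariate the log2 fold change of Actl6a was 0.28 (adjusted p = 0.832), that of Ss18 -0.29, that of Dpf2 -0.06 and that of Actl6b 0.11, so the last 3 changed sign. In that fit 5 of the 17606 tested genes (0.0284%) were called, none higher, against 9.05% without the covariate. The lost call is therefore not particular to the members. Without the 3 libraries that stood apart Actl6a had 0.58 (adjusted p = 0.334) and no member was called, against 3.47% of all tested genes. The Actl6a call was also lost on leaving out any of 9 single libraries, among them each of the 3 of P3 layer 2 (adjusted p = 0.0742 to 0.176), replicate 1 (0.155) and replicate 3 (0.0849) of P3 layer 3, replicate 3 of P7 layer 2 (0.0702) and each of the 3 of P7 layer 3 (0.0554 to 0.0616). At P3 the progenitor marker scores of the layers did not overlap (5.18 to 5.74 in layer 2 against 3.27 to 4.28 in layer 3). Scores made in the same way did not overlap for astrocyte (5.21 to 5.33 against 3.06 to 4.59), oligodendrocyte lineage (4.91 to 5.22 against 2.88 to 4.47) or interneuron markers (2.91 to 3.68 against 1.97 to 2.80). Those of microglia and vascular markers overlapped. Layer thus cannot be told apart from the content of progenitors, of these glia or of interneurons.

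**Figure D4:**
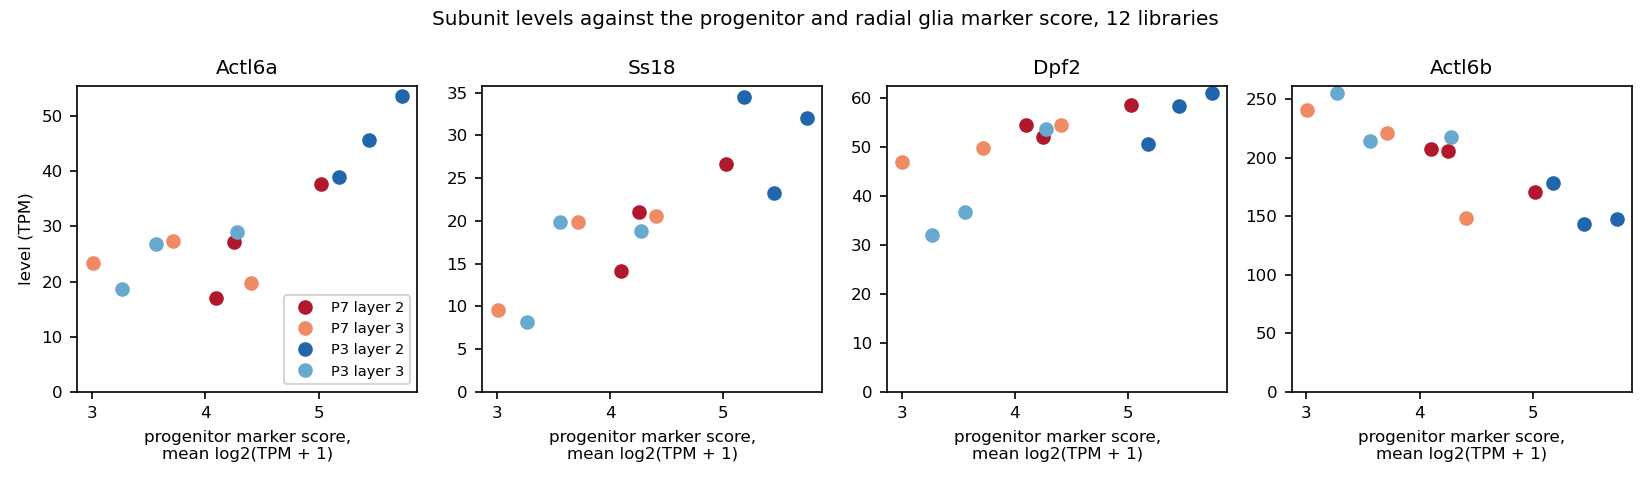
Level in TPM (vertical axes, from 0) of Actl6a, Ss18, Dpf2 and Actl6b against the progenitor and radial glia marker score, the mean log2(TPM + 1) of 10 markers (horizontal axes), in 12 libraries coloured by group. The 3 libraries of P3 layer 2 have the highest scores (5.18 to 5.74); Actl6a is highest there, and Actl6b is lowest in replicate 1 of P3 layer 2 (143 TPM).

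At P7 the layers gave no call. None of the 10 members was called by limma-trend, and none had an unadjusted p under 0.05, against 0.5% of all tested genes called (0.119% higher and 0.381% lower) and 9.92% with an unadjusted p under 0.05. Actl6a had 27.2 ± 10.4 TPM in layer 2 against 23.5 ± 3.86 TPM in layer 3 (log2 fold change 0.15 ± 0.26, 95% interval -0.41 to 0.70), and Actl6b had 195 ± 20.6 TPM against 203 ± 48.7 TPM (-0.04 ± 0.17, 95% interval -0.40 to 0.32). Log2 fold changes of all members lay between -0.18 (Dpf1) and 0.37 (Dpf3), with adjusted p of 0.710 or more.

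The difference between the layers in the age change was tested itself. For Actl6a the log2 fold change with age in layer 2, less the same value in layer 3, was -0.73 ± 0.36 (SE, adjusted p = 0.463), and for Actl6b it was 0.51 ± 0.24 (adjusted p = 0.436). No member was called by limma-trend, none had an unadjusted p under 0.05 (lowest 0.0501, Actl6b), and 0.182% of all tested genes were called (0.119% higher and 0.0625% lower). Calls of Actl6a in layer 2 and of Smarca2 in layer 3 are therefore not shown to be particular to those layers.

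Among 19 other subunits of BAF and its relatives, 6 (31.6%) were called between the ages over both layers, 1 higher and 5 lower. The total was near the 36.3% of all tested genes, but of these more were higher (23.6%) than lower (12.8%). After median-ratio scaling 51% of the calls over all genes were higher. None of the 19 was called by limma-trend between the layers at P3 (1 with an unadjusted p under 0.05) or at P7 (0 with an unadjusted p under 0.05). Of all tested genes 9.05% were called at P3 (23.8% with an unadjusted p under 0.05) and 0.5% at P7 (9.92%). The median log2 fold change of the 19 with age was -0.16, beside 0.10 for all tested genes. Brd9, a bromodomain subunit of the non-canonical form, rose by 0.45 ± 0.09 (SE, adjusted p = 0.00162), with 63.6 ± 4.62 and 75.9 ± 6.28 TPM at P7 in layers 2 and 3 against 46.0 ± 0.377 and 55.5 ± 7.57 TPM at P3. Bcl7c, an accessory subunit, was lower at P7 (-0.64 ± 0.12, adjusted p = 0.00095), with 24.9 ± 3.13 and 25.5 ± 2.49 TPM against 40.6 ± 5.57 and 39.3 ± 6.47 TPM. Actb, the actin that is both a subunit and a cytoskeletal protein, was lower (-0.56 ± 0.08, adjusted p = 8.27e-05), as was the core subunit Smarcb1 (-0.44 ± 0.07, adjusted p = 0.000314), with 231 ± 9.90 and 205 ± 19.7 TPM against 303 ± 10.9 and 289 ± 17.0 TPM. These 4 were called in each layer too, and they were the only ones of the 19 called there (1 higher and 3 lower of 19 in each layer). That is 21.1% of the list, near the 24.3% of all tested genes called in layer 2 and the 20.8% in layer 3. Over both layers these 4 calls held under all 22 alternatives, and within single layers Brd9 lost its call in 4 (layer 2) and 8 (layer 3) of 23, Bcl7c in 2 and 6, and Smarcb1 in 1 and 0. The DNA-binding subunits Arid1a (-0.47 ± 0.14, adjusted p = 0.0178) and Arid2 (-0.48 ± 0.16, adjusted p = 0.0296) completed the calls over both layers, and Arid1a lost its call in 3 and Arid2 in 9 of 22 alternatives.

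Of 8 genes that act upstream of the switch, 2 were called over both layers, against 36.3% of all tested genes. In limma-trend 6 of the 8 (75%) had an unadjusted p under 0.05, against 45.7% of all tested genes. Mir124a-1hg, a host transcript of miR-124, rose by 1.07 ± 0.22 (SE, adjusted p = 0.00183). It had 16.4, 6.37 and 11.7 TPM in P7 layer 2 and 19.9, 17.8 and 14.4 TPM in P7 layer 3, against 7.40, 4.90 and 3.87 TPM in P3 layer 2 and 5.53, 8.32 and 6.74 TPM in P3 layer 3. The ages did not overlap in layer 3, and in layer 2 replicate 2 at P7 was under the highest P3 library. It was called in layer 2 (0.92 ± 0.31, adjusted p = 0.0448) and in layer 3 (1.23 ± 0.31, adjusted p = 0.0132), calls lost in 13 and in 3 of 23 alternatives. Mir124-2hg, another host transcript of miR-124, was not called over both layers (0.21 ± 0.15, adjusted p = 0.294), in layer 2 (-0.03, adjusted p = 0.942) or in layer 3 (0.44, adjusted p = 0.152). Mir9-3hg, a host transcript of miR-9*, was not called over both layers either (0.27 ± 0.13, adjusted p = 0.109). The host transcripts do not measure the mature microRNA. Rcor2, a corepressor that works with Rest, was lower at P7 over both layers (-0.61 ± 0.16, adjusted p = 0.0101) and in layer 3 (-0.75 ± 0.23, adjusted p = 0.0328), where the call was lost in 7 of 23 alternatives. Rcor1, its relative, was called higher in layer 3 (0.54 ± 0.18, adjusted p = 0.0486), a call lost in 19 of 23 alternatives. Ptbp1, the splicing repressor of progenitors, was called lower in layer 2 (-0.74 ± 0.24, adjusted p = 0.0387), where its level was 26.6 ± 2.58 TPM at P7 against 45.5 ± 8.36 TPM at P3. That call was lost in 10 of 23 alternatives and was -0.20 (adjusted p = 0.562) with the progenitor marker score as a covariate. Rest itself, named here for the sequence shown above, was scarce, at 2.71 ± 1.53 and 2.32 ± 0.924 TPM at P7 in layers 2 and 3 against 5.42 ± 0.700 and 3.14 ± 1.46 TPM at P3 (-0.58 ± 0.24 over both layers, adjusted p = 0.0795).

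Among 18 ATPases of other remodelling families, 3 were called over both layers, 1 higher and 2 lower, against 36.3% of all tested genes. Smarca1, an ISWI ATPase, rose by 0.49 ± 0.15 (SE, adjusted p = 0.0203), Chd4 of the NuRD complex was lower (-0.31 ± 0.11, adjusted p = 0.0495), and Smarcad1 was lower (-0.37 ± 0.12, adjusted p = 0.0307). These calls were lost in 4, 14 and 8 of 22 alternatives. In layer 2 alone Smarcad1 was the 1 gene called (-0.51 ± 0.17, adjusted p = 0.0454, lost in 10 of 23 alternatives), against 24.3% of all tested genes. In layer 3 none was called by limma-trend, with 2 at an unadjusted p under 0.05, against 20.8% and 34.5% of all tested genes. Between the layers at P3, where 9.05% of all tested genes were called, the 1 call was Chd7, a remodeller of neural progenitors. Chd7 had 10.6 ± 0.435 TPM in layer 2 against 2.84 ± 2.01 TPM in layer 3 (1.71 ± 0.43, adjusted p = 0.0244). With the progenitor marker score as a covariate its log2 fold change was -0.08 (adjusted p = 0.964). In that fit 0.0284% of all tested genes were called between the layers at P3. The Chd7 call was also lost without the 3 libraries that stood apart (1.49, adjusted p = 0.131) and on leaving out any library of P3 layer 2 (adjusted p = 0.0548 to 0.0818) or replicate 1 (0.0832) or replicate 3 (0.0849) of P3 layer 3.

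**Figure D5:**
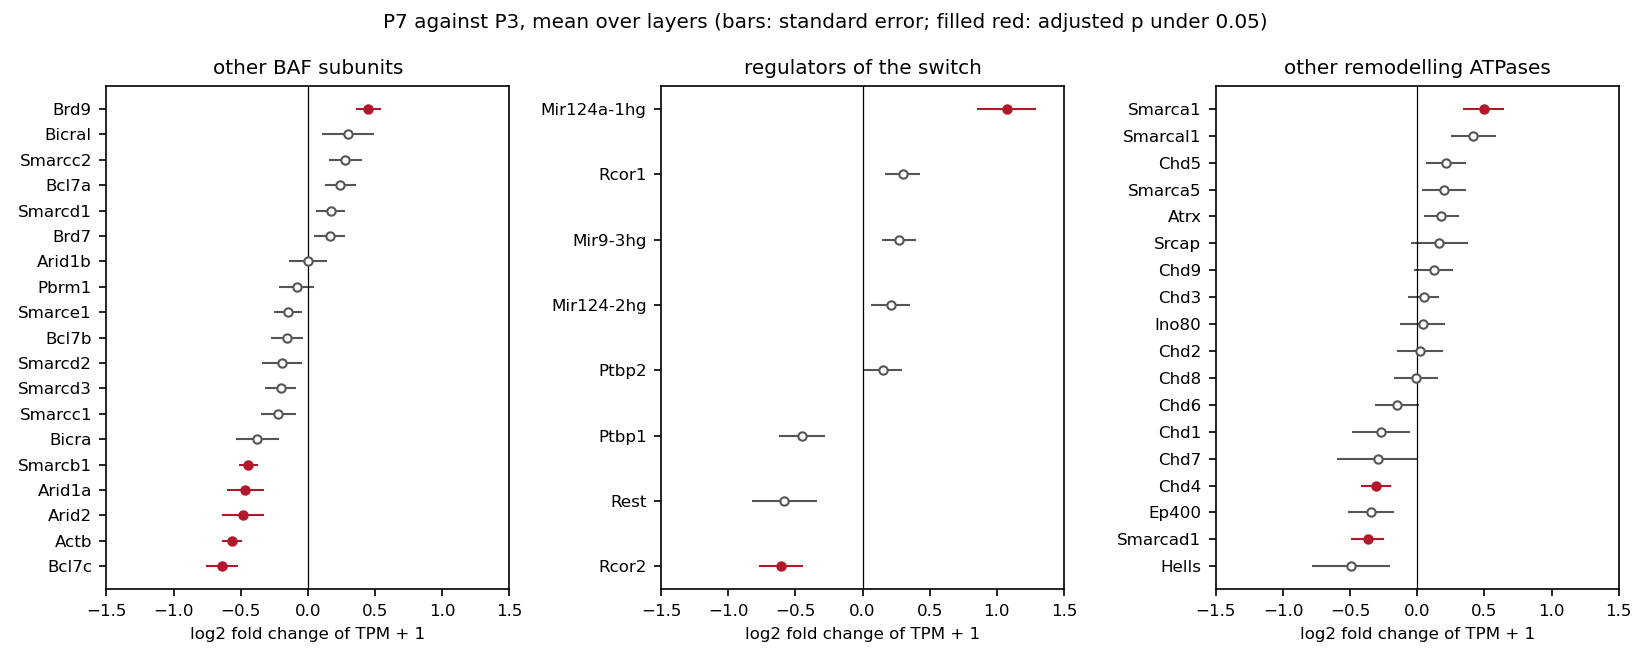
Log2 fold change of TPM + 1 from P3 to P7 as the mean over layers (horizontal axes) for 19 other BAF subunits, 8 regulators of the switch and 18 other remodelling ATPases; bars are standard errors and filled red points have an adjusted p under 0.05. Brd9, Mir124a-1hg and Smarca1 are called higher at P7, and Smarcb1, Arid1a, Arid2, Actb, Bcl7c, Rcor2, Chd4 and Smarcad1 are called lower.

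Genes whose pattern was most like that of Actl6a and Actl6b were ranked by the mean absolute difference in centred log2(TPM + 1) over the 12 libraries, among 8955 genes. Nearest to Actl6a were Smc4 (0.141), Gcsh (0.156) and Ctbp2 (0.158), where the median over all compared genes was 0.476. Smc4, a condensin subunit, had 21.3 and 16.9 TPM on average at P7 in layers 2 and 3 against 41.0 and 17.9 TPM at P3. Nearest to Actl6b were Ramp2 (0.0944), Basp1 (0.113) and Hras (0.113), where the median was 0.337. Basp1, a membrane protein of growth cones, had 2144 and 2279 TPM at P7 in layers 2 and 3 against 1817 and 2491 TPM at P3. These are descriptions over 12 libraries that share groups and scaling.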

How the data were processed

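Per the labels' protocols, an RNeasy mini kit gave the RNA and a SMART-Seq mRNA LP kit the libraries. The authors used, per the submitters' processing notes, HISAT2, StringTie and featureCounts with the build GRCm39. Versions, strand settings and the treatment of reads shared by paralogs are not given in the sources used here, so values of close paralogs carry that uncertainty. The deposited table holds TPM values for 56734 genes in 12 columns, computed by the authors and summing to 1000000 per library. Groups were taken from the sample titles and cell type labels. Gene coordinates on GRCm39 were not used.

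Values were transformed to log2(TPM + 1) and fitted in limma-trend (limma 3.58.1, R 4.3.3) with 1 mean per group over all 12 libraries, which leaves 8 residual degrees of freedom, after keeping 17606 genes with 1 TPM or more in 3 libraries or more. The 6 comparisons were P7 against P3 in each layer and as the mean over layers, layer 2 against layer 3 at each age, and the difference between the layers in the age change. P-values were adjusted by Benjamini-Hochberg over all tested genes, and a gene was called at an adjusted p under 0.05. Ratios, marker sums and likeness are descriptions. The pipeline was tested on simulated data. The members, the lists of other subunits, regulators, remodellers and markers, and the settings were chosen with earlier results of these data known. All 10 members are named, with up to 5 called genes per other list and comparison by size of change, and the 3 genes most like Actl6a and Actl6b. Rest, Mir124-2hg, Mir9-3hg and single marker genes were named outside that rule after their values were seen. Alternatives were quantile normalization, median-ratio scaling, array weights, a pseudocount of 0.1 or of 5, a minimum of 5 TPM or none, the replicate number as a block, a fit with 2 groups only, a progenitor marker score as covariate, each library left out, and 3 libraries left out together. Promoters are from RefSeq on GRCm38.p6.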

Additional observations from a re-analysis of the deposited data

How the results depend on the processing

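The count of members called over both layers between the ages was 2 and moved to 4 with median-ratio scaling, quantile normalization and array weights (35.9%, 36.8% and 51.8% of all tested genes called), and to 2 to 3 on leaving out single libraries (31.1% to 41.2%). In layer 2 it was 1 (24.3% of all tested genes). It became 0 with no filter (12.3%) or with the progenitor marker score as covariate (18.7%). It was 2 with array weights (36.9%) and 0 to 1 on leaving out single libraries (16.1% to 28.3%). With the compared groups alone it stayed at 1, but the member called was Smarca2 (adjusted p = 0.0405) and not Actl6a (adjusted p = 0.0536). In layer 3 it was 1. It became 0 with no filter (9.88% of all tested genes) and with the compared groups alone (13.8%). It was also 0 without the 3 libraries that stood apart (12%). It was 2 with a filter at 5 TPM (27.7%), median-ratio scaling or quantile normalization (19.7% with either). After median-ratio scaling Smarca2 was not among these 2, so other members were called there. Over all 23 alternatives run for layer 3, Smarca2 lost its call in 13. The count was 3 with array weights (43.7%) and 0 to 2 on leaving out single libraries (13% to 29.9%). Between the layers at P3 it was 1. It became 0 with a pseudocount of 0.1 (7.95% of all tested genes), no filter (3.68%) and median-ratio scaling (10.6%). It was also 0 with the marker score (0.0284%) and without the 3 libraries (3.47%). It was 2 with quantile normalization (10.4%), 3 with array weights (29.6%), and 0 to 2 on leaving out single libraries (3.78% to 11.3%). The causes were not tested, except that fits without a filter tested more genes and fits without libraries had fewer samples. At P7 between the layers, and for the difference in age change, it was 0 under every alternative run. The highest shares of all tested genes called there were 2.37% and 6.26%, both with array weights.

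With the marker score as covariate the log2 fold change changed sign for Actl6b with age in layer 2 (-0.061) and over both layers (-0.13), for Actl6b (0.24) and Actl6a (-0.11) between the layers at P7, and between the layers at P3 for Actl6b (0.11), Dpf2 (-0.058), Ss18 (-0.29) and Chd7 (-0.084). With median-ratio scaling Actl6b changed sign with age over both layers (-0.072) and between the layers at P7 (0.018). Without the 3 libraries Actl6b in layer 3 was 0.10, and with array weights Dpf3 in layer 3 was -0.11. On leaving out single libraries Actl6a with age in layer 3 ran from -0.25 to 0.052, Actl6b in layer 3 from -0.33 to 0.015 and over both layers from -0.0096 to 0.16, and between the layers at P7 Actl6a ran from -0.12 to 0.44 and Actl6b from -0.25 to 0.10. None of these values was called. For the other 33 member folds the values under the alternatives are not printed here. Of these 33, 23 changed sign in at least 1 alternative and 2 were called in at least 1, none with a changed sign.

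The labels do not say whether replicate numbers pair the samples. Correlations of the deviations of samples with the same number ran from -0.189 to 0.214, and from 0.0391 to 0.214 between the ages in layer 2. Samples with different numbers were not set beside them, so these values cannot settle the pairing. With the replicate block the counts of members called were 1 in layer 2, 1 in layer 3, 3 over both layers (Actl6a at -0.43 was then called, adjusted p = 0.0270), 1 between the layers at P3, 0 at P7 and 0 for the difference in age change. Of all tested genes 23.2%, 18.9%, 35.2%, 8.66%, 0.386% and 0.176% were called in these comparisons. Over both layers the count of other BAF subunits called lower ran from 3 to 8 and higher from 1 to 4 over 22 alternatives, regulators from 1 to 3 lower and 1 to 2 higher, and other ATPases from 0 to 3 lower and 0 to 2 higher. Between the layers at P3 other ATPases called higher ran from 0 to 8 and regulators from 0 to 3. Of all tested genes 19% (no filter) to 51.8% (array weights) were called over both layers. Between the layers at P3 that share ran from 0.0284% (marker score) to 29.6% (array weights).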
